A study of Mus musculus with 8 samples.

Results

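Pleiotrophin, midkine and 6 genes that stand beside them in the rule were followed through the nuclei of the mouse iris: Ptn, Mdk, Ptprz1, Pappa, Pappa2, Pcsk5, Pcsk6 and Nckap5. These 8 of the 22873 genes in the files were listed by symbol, and were chosen by their levels in constricted against untreated sphincter 2 muscle after pilocarpine, together with ligand, receptor or protease relatives. Values of that comparison are therefore given as a description, without a test.

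The nuclei came from the irises of female albino mice 6 to 8 weeks old with a wild-type genotype, and each of the 8 libraries pooled 5 or 6 irises. The 3 untreated libraries received no drops. The 3 constricted libraries came from eyes given 5% pilocarpine, a muscarinic agonist, in the light. The 2 dilated libraries came from eyes given 5% phenylephrine, an adrenergic agonist, with 1% cyclopentolate, a muscarinic blocker, in the dark, and both treatments lasted 6.5 hours. Drug and lighting changed together, so their parts cannot be told apart. The 34357 nuclei, with 109565284 UMIs (unique molecular identifiers, each standing for 1 captured transcript) in all, carried the cell type names that the submitters deposited, 10 in number, including 2 classes of sphincter muscle, dilator muscle, iris pigment epithelium (iris PE), ciliary body (CB), ciliary body epithelium (CBE) and 2 classes of stroma. Library totals ran from 5189437 to 25136427 UMIs.

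Sphincter 2 held 712 nuclei: 26, 136 and 190 in untreated replicates 1 to 3, 96, 28 and 79 in the constricted replicates and 71 and 86 in the dilated replicates. All 8 shared sphincter markers checked (Synpo2, Rbm24, Myh11, Acta2, Syt1, Ryr3, Hhip and Myocd) had UMIs in each of these libraries. Their summed level stayed between 12478 and 14021 CPM (UMIs of a gene per 1000000 UMIs of that library and cell type). The same sum lay between 13457 and 18624 CPM in sphincter 1, and between 4203 and 4414 CPM in untreated dilator muscle. These markers thus stand not for smooth muscle in general but for both sphincter classes. The sphincter 1 markers (Ttn, Ckm, Ctnna3 and Nptx2) separated them, with 65.2 to 143 CPM in sphincter 2 against 1124 to 6028 CPM in sphincter 1. At most 63 barcodes were shared by any pair of libraries, and 5 nuclei of sphincter 2 carried a shared barcode. The pair with 63 was dilated replicate 1 and untreated replicate 1. In untreated replicate 1, 22 of 89 CB nuclei and 8 of 79 CBE nuclei carried a shared barcode.

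Ptn and Mdk are the only members of a family of secreted, heparin-binding growth factors that act on growing neurites and on cell survival. Ptprz1 is a receptor-type tyrosine phosphatase of glia and neural progenitors whose phosphatase is held back when either ligand binds its chondroitin sulfate chains. Pappa and Pappa2 are secreted metalloproteases that cut insulin-like growth factor binding proteins and so free the growth factor. Pcsk5 and Pcsk6 are proprotein convertases that cut secreted precursors, such as those of the TGF-beta family, at basic residues. Nckap5 encodes a large cytoplasmic protein related to Nckap5l, which binds microtubules.

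All 8 genes are protein coding in the GENCODE annotation of mm10. Ptn lies on the minus strand at chr6:36714929-36810220 and Ptprz1 on the plus strand of the same chromosome at chr6:22875502-23052916. Mdk spans 2.49 kb at chr2:91929805-91932297, while Nckap5 spans 917 kb at chr1:125913620-126830799. Pappa is at chr4:65124174-65357509, Pappa2 at chr1:158711727-158980490, Pcsk5 at chr19:17432319-17837632 and Pcsk6 at chr7:65861734-66050386. Introns were counted, so each UMI could come from anywhere in these spans, and levels are not compared between genes. Pappa2, Pcsk6 and Nckap5 share their strand with 1, 1 and 3 other annotated genes, and their UMIs could be split with those.

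The stretches just before the start of transcription are shown for 4 genes, set by the annotations and not by their levels. They come from RefSeq (GRCm38.p6), which gave a promoter for 6 of the 8 genes. Only bases before the start in both RefSeq and GENCODE are printed, read 5′ to 3′ on the strand of the gene. Of the 6 genes, 4 had such bases, and motif matches of the others are not given. Ptprz1 is chr6:22875252-22875501 on the plus strand, and Ptn (chr6:36810221-36810429), Pcsk5 (chr19:17837633-17837882) and Nckap5 (chr1:126830800-126830882) are on the minus strand.
Ptprz1: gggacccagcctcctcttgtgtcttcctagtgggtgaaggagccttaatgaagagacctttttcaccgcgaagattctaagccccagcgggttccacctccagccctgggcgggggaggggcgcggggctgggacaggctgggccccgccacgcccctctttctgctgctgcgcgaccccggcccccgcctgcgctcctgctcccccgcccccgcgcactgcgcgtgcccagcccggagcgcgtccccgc
Ptn: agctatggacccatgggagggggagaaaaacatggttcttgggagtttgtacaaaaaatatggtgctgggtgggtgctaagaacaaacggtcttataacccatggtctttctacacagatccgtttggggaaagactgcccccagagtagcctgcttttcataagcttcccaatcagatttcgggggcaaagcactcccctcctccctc
Pcsk5: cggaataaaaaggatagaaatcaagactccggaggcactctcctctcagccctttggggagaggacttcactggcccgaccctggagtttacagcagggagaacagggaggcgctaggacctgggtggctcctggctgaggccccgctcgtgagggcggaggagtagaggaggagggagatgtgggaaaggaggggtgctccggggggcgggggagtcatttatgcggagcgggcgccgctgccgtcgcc
Nckap5: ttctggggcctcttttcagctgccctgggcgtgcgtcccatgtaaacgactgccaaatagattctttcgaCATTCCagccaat
The capitals mark the TEAD motif (GGAATG, read here on the other strand), found once before Nckap5 and in 12.6% of the 32851 windows of 250 bases in the RefSeq table. No match on either strand was found in the 250 bases before Ptprz1, Ptn or Pcsk5 for that motif, for the cyclic AMP response element (TGACGTCA, in 1.55% of windows), for its shorter form (TGACG, which the longer one contains, in 17.8%), for AP-1 (TGANTCA, in 6.75%) or for the serum response CArG box (in 1.47%). These letters describe the windows and no factor was measured on them.

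In untreated irises each gene had its own order of cell types. Ptn reached 4407, 4325 and 4865 CPM in stroma 2, the fibroblast-like stroma, and 280 CPM ± 126 (SD, n = 3 libraries) in endothelial cells, the next in order. All 3 stroma 2 values lay far above every value of the other cell types. In sphincter 2 the level was 90.6 CPM ± 5.68 (SD, n = 3), and its libraries overlapped those of stroma 1, the next in order. The Ptn levels of stroma 1, CB, iris PE and dilator muscle, from 80.9 down to 70.9 CPM, were not separable from each other.

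Mdk was highest in dilator muscle at 319, 287 and 308 CPM, followed by sphincter 2 at 162 CPM ± 13.8 (SD, n = 3), with no overlap between the libraries of the pair. Sphincter 1 stood near the end of the order, at 48.7 CPM ± 4.40 (SD, n = 3). Ptprz1 was led by CB at 705, 734 and 527 CPM. Sphincter 2 came next with 733, 196 and 125 CPM, and its libraries overlapped both CB and dilator muscle (213 CPM ± 60.5, SD, n = 3). Untreated replicate 1, with 26 nuclei, thus gave a Ptprz1 level far above those of the other untreated libraries.

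The muscles led the order for Pappa. Sphincter 2 gave 779, 554 and 409 CPM, dilator muscle 304, 236 and 245 CPM, and sphincter 1 110 CPM ± 5.86 (SD, n = 3). These 3 cell types and iris PE, the fourth in order, did not overlap. Pappa2 was scarce everywhere, at no more than 9.21 CPM ± 7.47 (SD, n = 3) in CBE, and no UMI of it was found in untreated sphincter 2, where 3 counts over the group would be 2.37 CPM.

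Pcsk5 was spread over sphincter 2 (298 CPM ± 101), sphincter 1 (239 CPM ± 50.2), stroma 2 (219 CPM ± 45.1) and endothelial cells (160 CPM ± 88.2; SD, n = 3 each), and no neighbours in that order were separable. Pcsk6 was separable in sphincter 1, at 26.9, 33.5 and 29.8 CPM, from sphincter 2 at 9.69 CPM ± 2.58 (SD, n = 3), and stood at 3.21 CPM or less elsewhere. Nckap5 was highest in CBE at 953 CPM ± 48.5, followed by CB, which the study describes as not epithelial, at 714 CPM ± 182 and by iris PE at 289 CPM ± 31.0 (SD, n = 3), each above the next without overlap. Sphincter 2 and sphincter 1 had 34.2 CPM each.

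**Figure D1:**
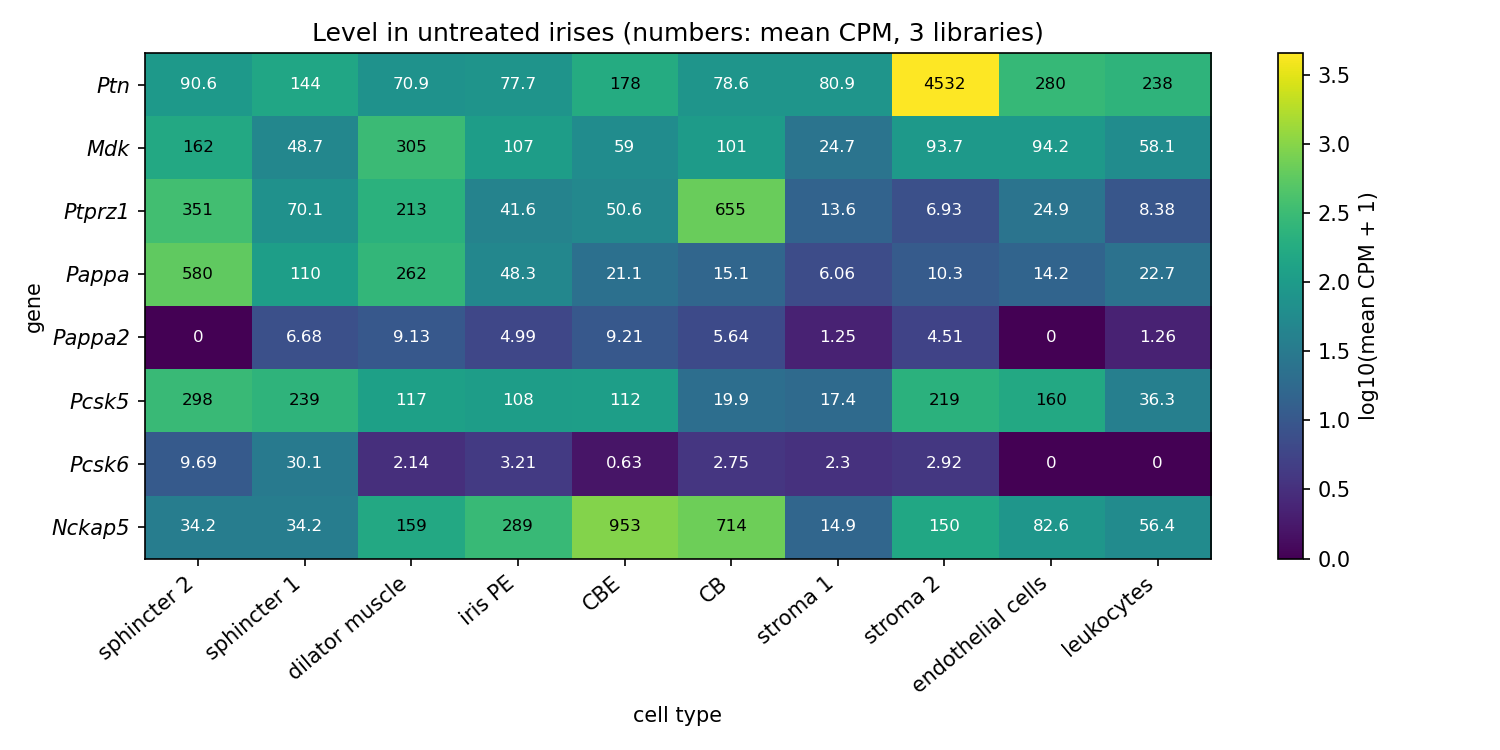
Mean level of the 8 genes (rows) in 10 cell types (columns) of the 3 untreated libraries; colour is log10(mean CPM + 1) and the printed number is the mean CPM. Ptn stands out in stroma 2 (4532 CPM), Mdk in dilator muscle (305 CPM), Pappa in sphincter 2 (580 CPM) and Nckap5 in CBE (953 CPM).

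The genes whose pattern was most like that of each member were found by Pearson's r of log2(CPM + 1) over the 80 sums of library and cell type, among 10959 genes; sums share libraries and cell types, so r is a description. Ptn was closest to Dcn (r = 0.88), which encodes the collagen-binding proteoglycan decorin, followed by E130114P18Rik (0.88) and Tbx3os1 (0.86). Mdk was closest to the GDNF family receptor Gfra1 (0.84), to Clu (0.76) and to the laminin chain Lama2 (0.73). For Ptprz1 the closest were Kcnip4 (0.83), a modulator of potassium channels, Mapk4 (0.83) and Chn1 (0.81). For Pappa they were the hedgehog-binding protein gene Hhip (0.87), the myosin kinase gene Mylk (0.83) and AC159282.1 (0.81). The convertases ran with Pdgfd (0.79), AC110166.1 (0.76) and Olfml2a (0.74) for Pcsk5, and with Myocd (0.84), the smooth muscle coactivator, Dbpht2 (0.82) and Pnck (0.81) for Pcsk6. Nckap5 was closest to the gap junction gene Gja1 (0.82), Kcnh1 (0.81) and Trpm3 (0.78), and the sparse Pappa2 had no r above 0.59 (Gm1992).

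In sphincter 2 of constricted irises the receptor and the ligand stood on opposite sides of the untreated level. Marker sums of the same nuclei also did not overlap between these groups. The dilator markers (Adra1a, Nos1, Cit and Unc13c) were at 1925, 1891 and 1367 CPM in constricted and 1997, 2416 and 2412 CPM in untreated libraries. The 8 shared sphincter markers were at 13547 to 14021 and 12478 to 13492 CPM. Taken singly, every dilator marker overlapped. Of the shared sphincter markers only Myh11 did not (3638 to 4100 CPM constricted, 2492 to 3171 CPM untreated). The part of these markers in the values of this contrast was not tested. Ptprz1 had 773, 1148 and 857 CPM in the constricted libraries against 733, 196 and 125 CPM in the untreated ones. The groups did not overlap, but untreated replicate 1 lay just under the lowest constricted library. The mean was 2.64 times the untreated mean, and the log2 ratio of 1.40 became 2.53 without untreated replicate 1. Within the libraries numbered in 1 consecutive series with that replicate the ratio was 1.05, and within the later series 5.35.

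Ptn had 26.0, 21.7 and 25.3 CPM after constriction, from 8, 3 and 6 UMIs, against 91.6, 95.7 and 84.5 CPM in untreated and 77.8 and 102 CPM in dilated libraries. Every constricted library was thus below every other one, and the untreated mean was 3.73 times the constricted mean. Lower Ptn values after constriction, none of them called, were also found in other cell types of the same libraries, as given below. Ptn is most abundant in stroma 2, and markers of stroma 2 were therefore read in the same nuclei. The 3 used here (Tfap2b, Glis1 and Pdgfra) summed to 18.3 to 57.8 CPM in untreated sphincter 2, 7.22 to 12.99 CPM in constricted and 37.0 to 74.9 CPM in dilated libraries. In stroma 2 itself that sum was 3774 to 5423 CPM, and 1 of its marker UMIs went with 0.889 Ptn UMIs in untreated and 0.985 in constricted nuclei. In sphincter 2 the same ratio was 2.13 in untreated nuclei (113 Ptn to 53 marker UMIs) and 2.43 in constricted nuclei (17 to 7). The part of stroma 2 RNA in the Ptn result was not tested. Within a library, Ptn in sphincter 2 was 1.39, 1.63 and 0.961 times its level in dilator muscle in the untreated replicates, 0.476, 0.752 and 0.694 times in the constricted and 1.52 and 2.39 times in the dilated ones.

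**Figure D2:**
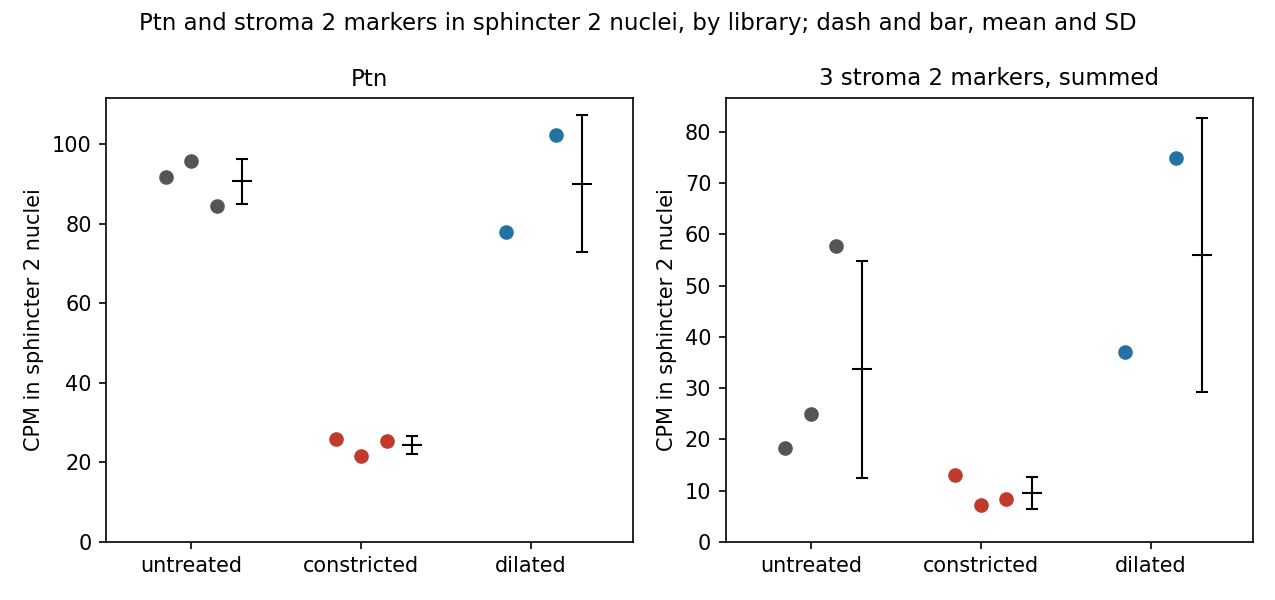
Left, Ptn in sphincter 2 nuclei; right, the summed level of 3 stroma 2 markers in the same nuclei; both in CPM, 1 point per library, with dash and bar for the mean and SD. In both panels the 3 constricted libraries (21.7 to 26.0 CPM for Ptn, 7.22 to 12.99 CPM for the markers) lie below every untreated and dilated library.

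Mdk, the other ligand, was given by 175, 72.2 and 97.1 CPM in constricted and 147, 169 and 172 CPM in untreated libraries, and the groups overlapped. Pappa had 1208, 1328 and 916 CPM after constriction against 779, 554 and 409 CPM, so that every constricted library was above every untreated one and the means stood at a ratio of 1.98. Its relative Pappa2 had no UMI in constricted replicate 1, 7 UMIs in replicate 2 and 1 in replicate 3, with 0 in all 3 untreated libraries. The constricted nuclei together stood at 4.93 times the level that 3 counts over the untreated group would give, but the libraries of the groups overlapped. Nearly all of that came from 1 library, in which 2 of 28 nuclei had a Pappa2 UMI.

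Of the convertases, Pcsk5 had 87.7, 129.9 and 169 CPM after constriction against 192, 308 and 393 CPM, with an untreated mean 2.31 times the constricted mean. Pcsk6 had 19.5, 14.4 and 16.9 CPM against 9.16, 12.5 and 7.41 CPM, which rest on 12 UMIs in each group. Nckap5 had 101, 166 and 97.1 CPM against 36.6, 43.7 and 22.2 CPM, a ratio of 3.55, and the groups did not overlap. For the 6 genes with enough counts to be tested, 5 did not overlap between the groups, beside 11.2% of all 6691 genes tested in sphincter 2. The rule used this contrast and nothing is read from that count, nor from the 0.0897% of those genes past the call rule given below.

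**Figure D3:**
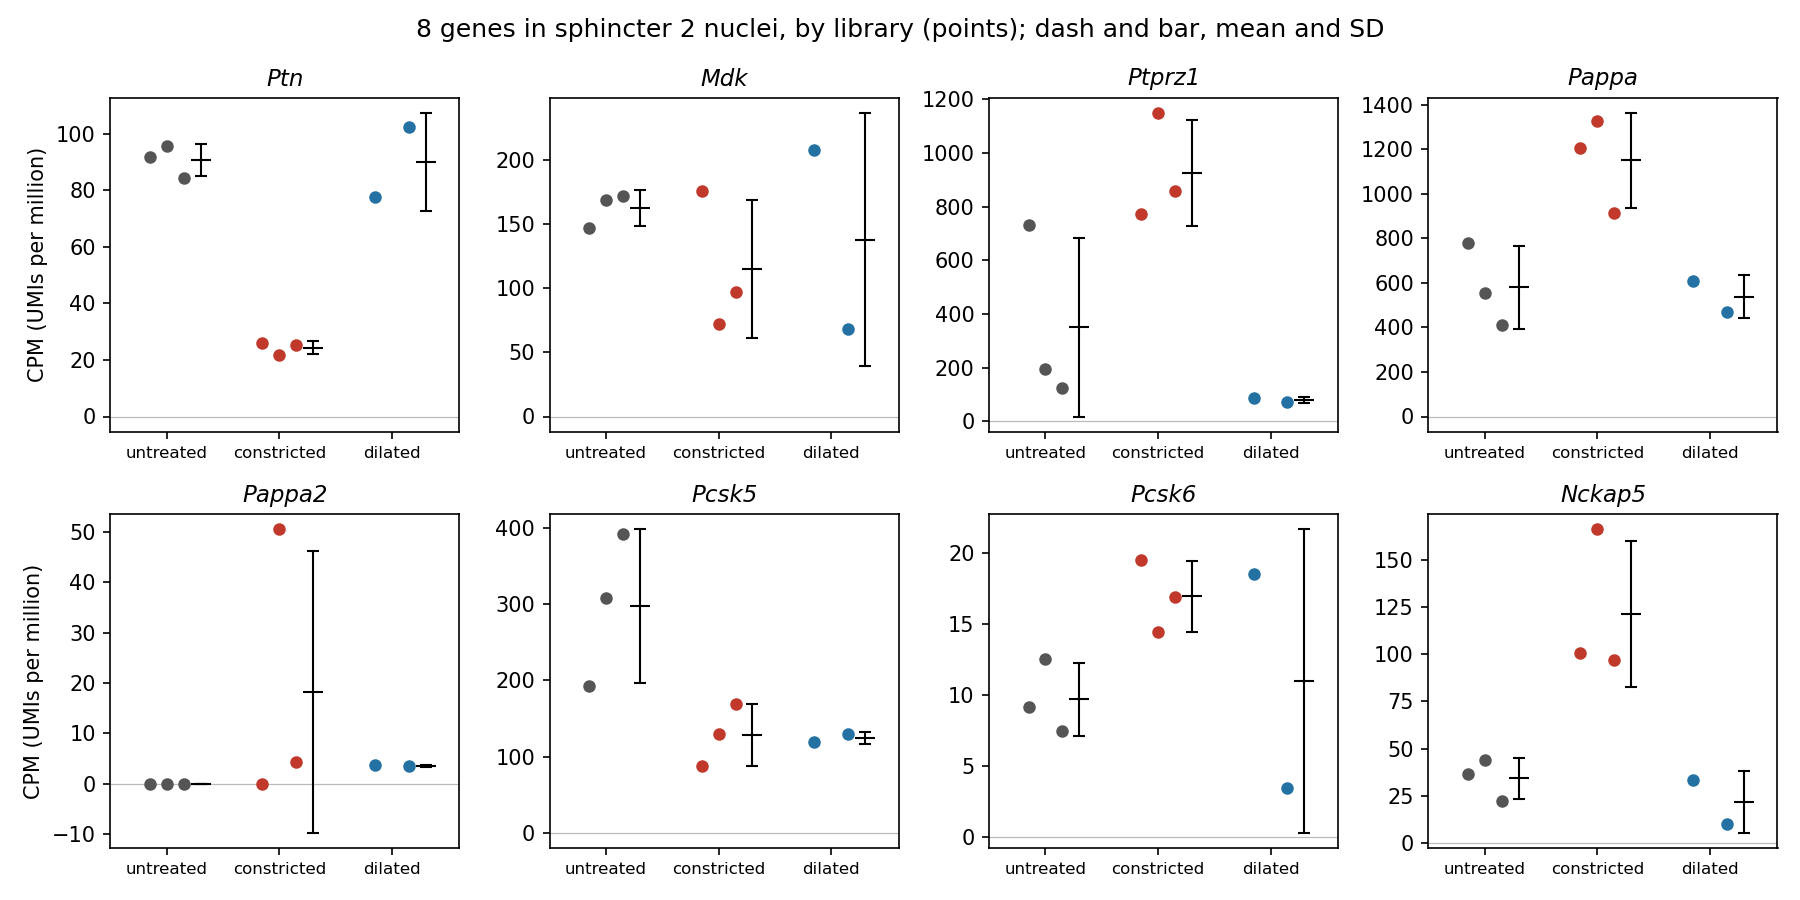
Level of each gene in sphincter 2 nuclei (CPM, linear axes of different height), 1 point per library, with dash and bar for the mean and SD of the 3 untreated, 3 constricted and 2 dilated libraries. Ptn is low and Nckap5 and Pappa are high in all 3 constricted libraries, whereas 1 untreated Ptprz1 library (733 CPM) lies near the constricted ones.

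The share of sphincter 2 nuclei with at least 1 Ptprz1 UMI was 36.6% in untreated, 70.4% in constricted and 21.0% in dilated irises. By library the groups overlapped, with 69.2%, 41.2% and 28.9% in the untreated and 66.7%, 82.1% and 70.9% in the constricted replicates, so that untreated replicate 1 stood above constricted replicate 1. With each nucleus thinned to 1000 UMIs the pooled shares were 18.2%, 44.8% and 7.64%, in the same order (1 shallower untreated nucleus was left out). In stroma 2, where Ptprz1 was near its lowest level, 1.48%, 2.22% and 2.48% of nuclei had a UMI. Median depths per library were 2944 to 4824 UMIs in sphincter 2 and 2154 to 3825 UMIs in stroma 2. For Pcsk5 the pooled sphincter 2 shares were 58.0%, 30.5% and 30.6%, and by library the untreated (52.9% to 61.5%) and constricted shares (24.0% to 46.4%) did not overlap.

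The rule did not use the dilated libraries, although their comparison with the untreated irises shares its 3 untreated libraries with the one that chose them. It was tested in every cell type with edgeR's quasi-likelihood test on UMIs summed per library, two-sided and adjusted by Benjamini-Hochberg over all genes of the cell type, and a gene counted as called when its adjusted p was under 0.05 and its log2 fold change lay beyond 0.6 in either direction. Of 80 pairs of gene and cell type 53 had enough counts, and 6 of them were called, 2 higher and 4 lower, beside 3.34% of all pairs tested. One of the 6, Pcsk5 in sphincter 2, is given below as a description without a test: the gene was chosen with untreated sphincter 2 values above the constricted ones, and a choice of high untreated values favours a fall against the same libraries. With the series of consecutive library numbers as a term 11 pairs were called, those 6 and Ptprz1 in dilator muscle, Pcsk6 in sphincter 1, Nckap5 in iris PE and stroma 2 and Pcsk5 in stroma 2, all 5 lower. With that term sphincter 2 as a whole had 191 genes called higher and 159 lower, against 98 and 94 in the main fit. None of the 5 added calls was in sphincter 2. The share of all pairs called with that term is not given, so nothing particular to the members is read from the 11. By DESeq2 6 were called. They were 1 in sphincter 2 (99 of all genes), 1 in sphincter 1 (87), 3 in dilator muscle (1952) and 1 in iris PE (160). An unadjusted p under 0.05 was found for 16 pairs, 9 of them outside the muscles. In sphincter 2 there were 2 (897 of 6691 genes), in sphincter 1 2 (743 of 7112) and in dilator muscle 3 (4351 of 15395).

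In sphincter 2 the dilated libraries lay below the untreated ones for Ptprz1 and Pcsk5, the 2 of 6 members that passed the call rule there (2.87% of all genes tested in sphincter 2). For the reason given above, nothing is read from the part of Pcsk5 in this count or the next. The same 2 of 6 did not overlap between the groups, as for 30.0% of all genes. Ptprz1 had 88.9 and 71.5 CPM in the dilated libraries, below all 3 untreated libraries at 733, 196 and 125 CPM. It fell by 1.71 on the log2 scale (SE 0.46, edgeR adjusted p = 0.0352). Untreated replicate 1 weighed on that value: without it the log2 fold change was -0.92 (adjusted p = 0.134). The call was also lost with DESeq2 (-2.00, adjusted p = 0.156), in a fit of the 2 groups alone (-1.63, 0.0502), and without dilated replicate 1 (-1.78, 0.0829) or 2 (-1.60, 0.214).

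Pcsk5 in sphincter 2 had 119 and 129 CPM after dilation against 192, 308 and 393 CPM, again without overlap. The log2 fold change was -1.28 (SE 0.28), and -1.44 to -0.93 over the alternatives. The dilated values lay within the range of the constricted ones (87.7 to 169 CPM). The other 4 members tested in sphincter 2 were not called: the log2 fold changes were 0.08 for Ptn (SE 0.30), -0.22 for Mdk (SE 0.32), 0.03 for Pappa (SE 0.23) and -0.52 for Nckap5 (SE 0.53). The summed dilator markers in sphincter 2 nuclei were 1196 and 1748 CPM in the dilated libraries and 1997 to 2416 CPM in the untreated ones. Taken singly, only Unc13c of the dilator markers did not overlap (978 and 593 against 1292 to 1776 CPM). Cit was at 496 and 416 against 381 to 421 CPM. Of the 8 shared sphincter markers, Syt1 (1396 and 1346 against 1713 to 2412 CPM) and Hhip (589 and 845 against 866 to 1173 CPM) were lower without overlap. Ryr3 (1130 and 1134 against 796 to 980 CPM) and Myh11 (3493 and 3444 against 2492 to 3171 CPM) were higher without overlap. The rest of these markers overlapped. The part of these markers in the results was not tested.

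In dilator muscle, with 13.3% of all genes called, 3 of the 8 genes were called, and 6 did not overlap between the groups (48.4% of all genes). Nckap5 had 52.7 and 37.9 CPM after dilation, against 185, 144 and 148 CPM. It fell by 1.61 on the log2 scale (SE 0.18, edgeR adjusted p = 0.000127), and no value of the groups came near the other's. Pcsk5 had 53.3 and 44.3 CPM, below the untreated 119.7, 116 and 115 CPM, and fell by 1.08 on the log2 scale (SE 0.17, adjusted p = 0.00114). Pappa went the other way, with 424 and 367 CPM against 304, 236 and 245 CPM, a log2 fold change of 0.80 (SE 0.15, adjusted p = 0.00346). These 3 calls kept their direction and stayed past the threshold in all 16 alternatives, with log2 fold changes of -1.79 to -1.46 for Nckap5, -1.14 to -1.02 for Pcsk5 and 0.75 to 0.87 for Pappa. Marker sums moved in the same nuclei: the dilator markers were at 1880 and 1695 CPM in the dilated and 3278 to 3803 CPM in the untreated libraries, and the 8 shared sphincter markers at 2697 and 3301 against 4203 to 4414 CPM. Their part in these results was not tested.

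In sphincter 1 the single call among 7 genes tested was Pappa (1.95% of all genes called there), and 3 of the 7 did not overlap (28.8% of all genes). It had 314 and 249 CPM after dilation against 113, 113 and 103 CPM, and its log2 fold change was 1.40 (SE 0.33, edgeR adjusted p = 0.0268). The direction held in all 16 alternatives (1.14 to 1.53), but the call was lost without dilated replicate 1 (1.29, adjusted p = 0.149), dilated replicate 2 (1.53, 0.0813), untreated replicate 2 (1.45, 0.0889) or untreated replicate 3 (1.36, 0.211), and with the replicate number as a block (1.14, 0.0851). Ptprz1 and Pcsk5 had log2 fold changes of 0.42 (SE 0.31) and -0.14 (SE 0.23) in sphincter 1. The summed sphincter 1 markers were 1124 and 1322 CPM in the dilated libraries of sphincter 1 and 2920 to 3704 CPM in the untreated ones, and their part in the Pappa result was not tested.

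Outside the muscles no member was called by edgeR with dilation in 32 pairs tested, beside 0.814% of all pairs. Of the 32, 9 had an unadjusted p under 0.05. In iris PE there were 3 (1261 of 14128 genes) and in stroma 2 2 (1490 of 12788). CBE had 2 (353 of 8166 genes) and CB 2 (393 of 7522). DESeq2 called 1, in iris PE, where it called 160 of all genes. Nckap5 in iris PE came closest, with 195 and 119 CPM against 324, 273 and 268 CPM and a log2 fold change of -0.83 (SE 0.21, edgeR adjusted p = 0.118), and it passed the threshold in 4 of 16 alternatives. Pappa in CB had 61.4 and 20.6 CPM against 17.3, 17.8 and 10.1 CPM, a log2 fold change of 1.65 (SE 0.47, adjusted p = 0.338). Nckap5 in stroma 2 had a log2 fold change of -0.81 (-1.70 to -0.32 over the alternatives). Among the muscles, Pcsk6 was not called in sphincter 1, the cell type in which it was highest. It had 10.9 and 4.61 CPM there against 26.9, 33.5 and 29.8 CPM (log2 fold change -1.96, SE 0.60, edgeR adjusted p = 0.114). These values rest on few UMIs, found in 6 of 235 dilated and 50 of 544 untreated nuclei of sphincter 1.

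**Figure D4:**
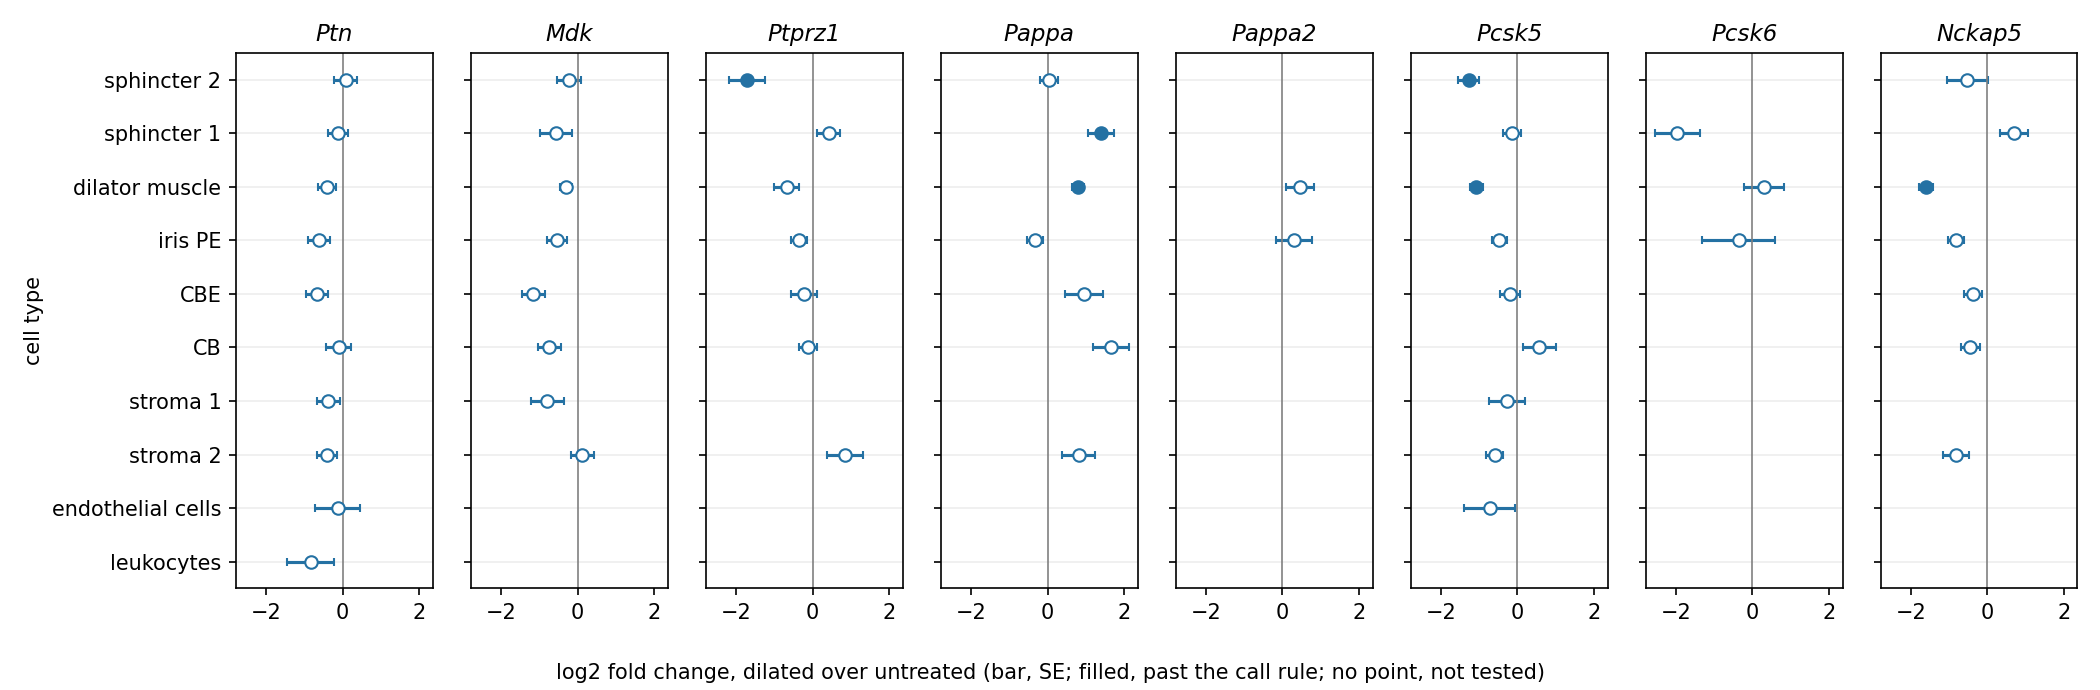
Log2 fold change of dilated over untreated libraries (horizontal axis; bar, SE) for each gene (panels) in 10 cell types (rows); filled points passed the call rule and pairs without enough counts have no point. The 6 filled points are Ptprz1 and Pcsk5 in sphincter 2, Pappa in sphincter 1, and Pappa, Pcsk5 and Nckap5 in dilator muscle. Pcsk5 in sphincter 2 is shown as a description, without a test.

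Whether the dilation effect itself differed between muscles was tested by the interaction in a joint fit with a term for each library. Against sphincter 1, 3 members passed the call rule (3.33% of 7719 genes), and nothing is read from the part of Pcsk5 in that count. The effect in sphincter 2 minus that in sphincter 1 was -1.77 on the log2 scale for Ptprz1 (SE 0.44, edgeR adjusted p = 0.00974) and -1.27 for Pappa (SE 0.29, adjusted p = 0.00323). For Pcsk5 it was -1.14 (SE 0.27), without a test for the reason given above. Against dilator muscle only Pappa was called (2.04% of 12671 genes), with a difference of -0.70 (SE 0.17, adjusted p = 0.00516). For Ptprz1 that difference was -0.83 (SE 0.27, adjusted p = 0.0851), for Pcsk5 -0.22 (SE 0.24) and for Nckap5 1.07 (SE 0.55). The Ptprz1 call and both Pappa calls were lost without dilated replicate 2, where the edgeR adjusted p-values were 0.0916, 0.0664 and 0.187 in the order given.

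After constriction, no member was called in the 9 cell types other than sphincter 2, in 47 pairs tested, where 0.00510% of all pairs were called by edgeR. There were 11 pairs with an unadjusted p under 0.05. Sphincter 1 held 3 (451 of 7112 genes there), dilator muscle 4 (630 of 15395) and stroma 2 2 (676 of 12788). Iris PE held 1 (617 of 14128 genes) and CB 1 (386 of 7522). DESeq2 called 2 pairs, 1 in sphincter 1 and 1 in dilator muscle, where it called 15 and 13 of all genes. The nearest to a call was Pappa in dilator muscle, at 448, 562 and 491 CPM against 304, 236 and 245 CPM in untreated libraries. Every constricted library was above every untreated one there, with a log2 fold change of 0.97 (SE 0.14, edgeR adjusted p = 0.0515), and 6 of 16 alternatives called it (log2 fold changes over all 16 of 0.86 to 1.06). Ptprz1 in the same nuclei had 353, 930.2 and 551 CPM against 282, 169 and 187 CPM (log2 fold change 1.57, SE 0.29, adjusted p = 0.355), again without overlap. Ptn was also lower, without a call, in dilator muscle (log2 fold change -0.80, SE 0.22, edgeR adjusted p = 0.911). The same held for iris PE (-0.84, SE 0.26, adjusted p = 0.911) and CB (-0.77, SE 0.34, adjusted p = 0.928). Its log2 fold change was -1.07 (SE 0.63) in endothelial cells and -0.40 (SE 0.28) in stroma 1. In sphincter 1 it was -0.21 (SE 0.26) and in CBE -0.19 (SE 0.26). Ptn was not lower in stroma 2 (0.03, SE 0.23) or leukocytes (0.90, SE 0.48). In dilator muscle 4 of the 8 genes, Ptn among them, did not overlap between these groups (9.34% of all genes). Nckap5 counts among the 4 only because constricted replicate 3, at 184.531 CPM, lay just above untreated replicate 1, at 184.525 CPM. The dilator markers did not overlap either (2508 to 3146 CPM constricted, 3278 to 3803 CPM untreated). The same held for the shared sphincter markers (4651 to 5274 and 4203 to 4414 CPM), and the part of the markers was not tested.

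Pcsk5 in sphincter 1 had 85.6, 109 and 126 CPM after constriction against 183, 253 and 280 CPM, with no overlap, as for 2 of the 7 members tested there (11.4% of all genes). Its log2 fold change was -1.19 (SE 0.24, edgeR adjusted p = 0.0666), and 4 of 16 alternatives called it, DESeq2 among them (-1.17, adjusted p = 0.0104). The dilator markers in the same nuclei were at 157 to 276 CPM in constricted and 323 to 461 CPM in untreated libraries, and their part was not tested. In dilator muscle the same gene showed little difference, with 101, 123 and 84.3 CPM against 119.7, 116 and 115 CPM (log2 fold change -0.18, SE 0.15). Nckap5 in dilator muscle had 222, 261 and 185 CPM, at or above the untreated 185, 144 and 148 CPM (log2 fold change 0.51, SE 0.15). In CB, where Ptprz1 was highest, its log2 fold change was 0.04 (SE 0.21).

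**Figure D5:**
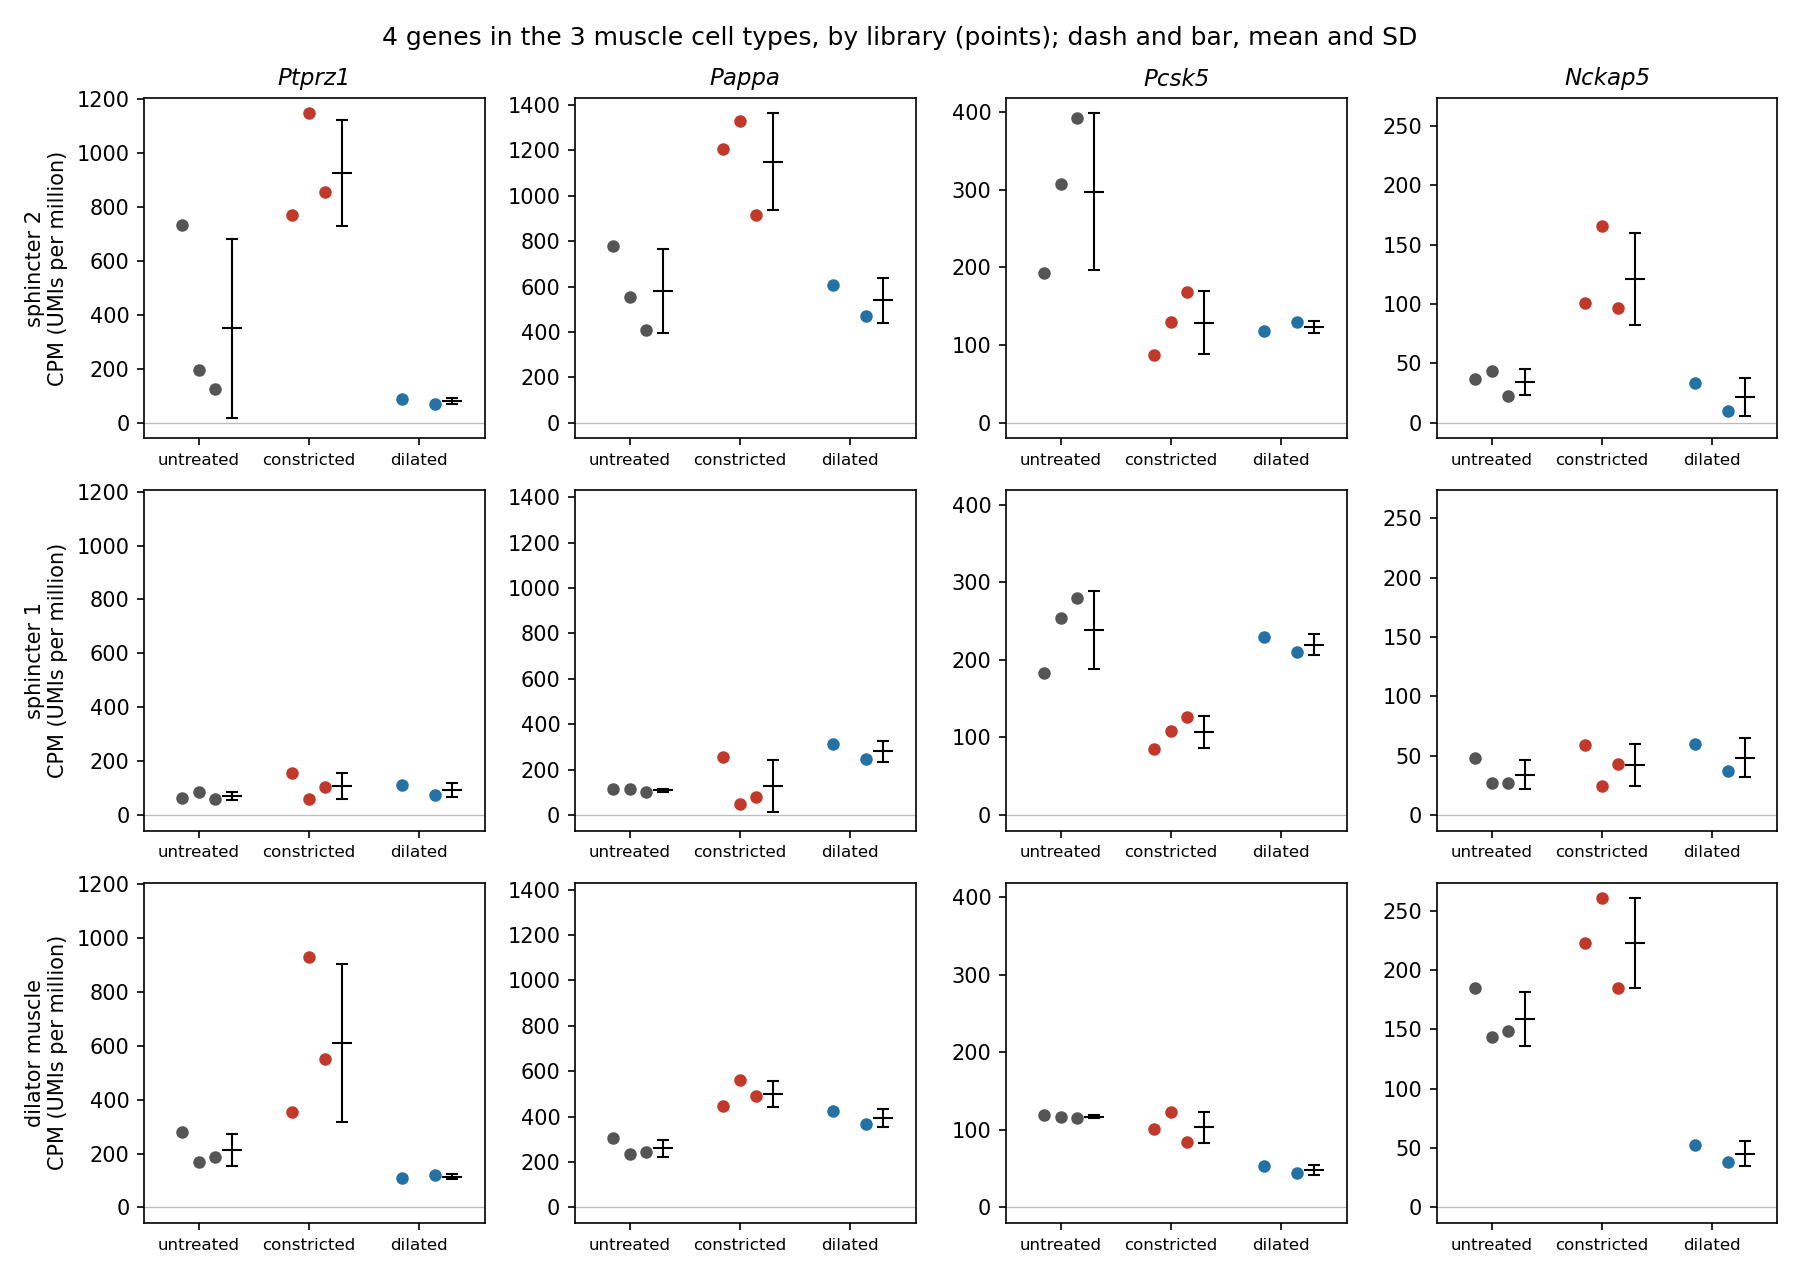
Ptprz1, Pappa, Pcsk5 and Nckap5 (columns) in sphincter 2, sphincter 1 and dilator muscle (rows), in CPM by library, with 1 scale per gene and dash and bar for the mean and SD. Nckap5 in dilator muscle drops to 52.7 and 37.9 CPM with dilation, and Pcsk5 in sphincter 1 lies at 85.6 to 126 CPM in the constricted libraries, below every dilated and untreated library.

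The relatives of these genes were taken from 4 lists of 70 genes, 63 of them in the files, and set beside the same shares of all genes. The lists were chosen with earlier results of these data known. Nothing is therefore read from how their counts and medians compare with those of all genes. In sphincter 2 39 listed genes were tested and 1 was called with dilation, beside 2.87% of all genes: Tnc, which encodes tenascin-C, a matrix ligand of Ptprz1. Tnc had 66.7 and 68.1 CPM in the dilated libraries (18 and 20 UMIs) against 9.16, 6.24 and 11.9 CPM (1, 3 and 8 UMIs), a log2 fold change of 2.86 (SE 0.54, edgeR adjusted p = 0.00149). Its constricted libraries stayed at 9.74, 7.22 and 16.9 CPM. None of the 39 was called with constriction, with 6 at an unadjusted p under 0.05, beside 397 of all 6691 genes tested there. The median log2 fold change of the 39 was 0.06 with dilation and 0.12 with constriction, beside 0.01 in both contrasts over all genes tested in sphincter 2.

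Among the 16 tested receptors and partners of pleiotrophin and midkine in sphincter 2, Tnr, another tenascin, had the largest constriction log2 fold change, -1.07 (SE 0.42). In the insulin-like growth factor axis, on which Pappa acts, 10 of 18 genes were tested and none was called. Its largest values belonged to the binding protein gene Igfbp2, which had 29.2, 65.0 and 63.3 CPM after constriction, from 9, 9 and 15 UMIs, against 27.5, 8.32 and 8.90 CPM. Its log2 fold change was 2.21 (SE 0.56, edgeR adjusted p = 0.142) with constriction and 1.05 (SE 0.70) with dilation. Of the convertases and their substrates 9 of 23 were tested and none was called, with the largest values for Tgfb3 (1.47, SE 0.61, with constriction and -1.91, SE 1.09, with dilation). Tgfb3 rested on few UMIs, 8, 8 and 12 in the constricted, 0 and 2 in the dilated and 5, 6 and 7 in the untreated libraries. Of the 5 Nckap5 relatives 4 were tested, led by the adaptor gene Nck2 at 0.45 (SE 0.22) with constriction and by the microtubule end-binding gene Mapre1 at 0.74 (SE 0.37) with dilation.

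In dilator muscle, where 13.3% of all genes were called with dilation, 10 listed genes were called higher and 5 lower of 55 tested. Tnc again had the largest value, 3.97 (SE 0.48, edgeR adjusted p = 0.000217), from 31.5 and 14.4 CPM against 3.74, 0.704 and 1.90 CPM. Igfbp2 had 76.6 and 106 CPM against 18.1, 11.96 and 16.1 CPM, a log2 fold change of 2.81 (SE 0.22, edgeR adjusted p = 1.50e-05). The constricted libraries, at 40.7, 43.0 and 49.0 CPM of Igfbp2, also lay above every untreated one. Along the Pappa axis Irs2 (1.04), an insulin receptor substrate, and Stc1 (1.98), of the stanniocalcin family that inhibits Pappa, also rose. Stc1 rested on few UMIs, 33 and 11 in the dilated and 3, 4 and 4 in the untreated libraries. Tgfb1 (1.41), the convertase gene Furin (0.81), the syndecans Sdc4 (1.07) and Sdc1 (1.13), Tnr (0.81) and Mapre1 (0.68) rose with them. Nrcam (-1.64), the convertase gene Pcsk4 (-1.63), Bmp4 (-0.90) and Nckap5l (-0.86), the closest relative of Nckap5, fell, as did Nck2 (edgeR adjusted p = 0.000389). Pcsk4 too had few UMIs, 24 and 6 in the dilated and 12, 44 and 41 in the untreated libraries. The median of the 55 was 0.29 beside 0.02 over all genes tested in dilator muscle, and none of them was called with constriction.

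In the other cell types 8 listed genes were called with dilation. Stroma 2, with 1.73% of all genes called, held 5 of them, all higher: Adamts4 (2.77) and Adamts5 (1.80), aggrecan-cutting proteases that convertases activate, Igfbp2 (1.77), Sdc4 (1.43) and Irs1 (1.09). Adamts4 had 51 and 21 UMIs in the dilated and 3, 4 and 7 in the untreated libraries there. Adamts1 (1.41) and Itga4 (1.44) rose in stroma 1, where 1.17% of all genes were called. Adamts5 fell by 1.29 in sphincter 1. Over the 10 cell types 24 of 384 pairs of listed gene and cell type were called with dilation (3.34% of all pairs). Of these 24, 18 were higher. With constriction edgeR called 0 (0.0118% of all pairs) and DESeq2 1, and 40 had an unadjusted p under 0.05. The most were in iris PE (8 of 53, beside 617 of 14128 genes) and stroma 2 (6 of 53, beside 676 of 12788). Sphincter 2 had 6 of 39 (397 of 6691 genes) and endothelial cells 5 of 12 (146 of 1352). Nothing is read from these counts, for the reason given with the lists.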

How the data were processed

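Single-nucleus RNA-seq libraries (10x Genomics 3' v3) were aligned by the authors to an mm10 pre-mRNA index with Cell Ranger 3.1.0, and what they deposited are raw counts of UMIs for every gene in every nucleus. The authors also deposited each nucleus's mitochondrial percent, at most 1 percent after their filter, and the cell type names used here. The 8 members and the lists of relatives were chosen with earlier results of these data known. A planned stroma 2 marker, left out of every sum, and a gene among those closest in pattern to Pappa2 are not reported here.

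For each library and cell type UMIs were added up and scaled to CPM. Libraries were the replicates (3 untreated, 3 constricted, 2 dilated), each of 5 or 6 pooled irises. edgeR 4.0.16 (quasi-likelihood, TMM, filterByExpr, all 8 libraries in 1 fit per cell type) gave log2 fold changes, with standard errors computed from the F statistic. DESeq2 1.42.0, RLE factors, no filter on low counts, only the 2 groups compared, the replicate number as a block, the series of library numbers as a term, removal of Scrublet doublet calls (359 nuclei, 1.04%) and leaving out each library were alternatives. Removal of the 400 nuclei whose barcode occurs in another library was added after seeing the data. The scripts were tested on simulated counts. Named genes were the 8 members, for each the 3 genes with the highest r among those with a mean of at least 10 CPM, the listed genes called, and in sphincter 2 the gene of each list with the largest absolute log2 fold change. Library depth was 5189437 to 25136427 UMIs, and floors of 3 counts cover counting error only. The study used 5 processing batches and 2 sequencing runs, which the sources used here do not assign to libraries.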

Additional observations from a re-analysis of the deposited data

Results flagged for a closer look

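The dilation effect in sphincter 2 was compared only with those in sphincter 1 and in dilator muscle. The difference passed the call rule for Ptprz1 and Pappa against sphincter 1 and for Pappa against dilator muscle. Of all genes, 3.33% and 2.04% were called in these comparisons. Nothing is read from a call of Pcsk5. For Ptprz1 the effect in sphincter 2 minus that in sphincter 1 was -1.77 on the log2 scale, with dilated libraries at 88.9 and 71.5 CPM in sphincter 2 and 112 and 73.8 CPM in sphincter 1. For Pappa the same difference was -1.27. For Pcsk5 it was -1.14, given as a description because the gene was chosen with high untreated values in sphincter 2. For Pappa the effect in sphincter 2 minus that in dilator muscle was -0.70. In the edgeR fits that leave out 1 library, where a lone dilated library is assumed to vary like the other groups, the Ptprz1 call was lost without dilated replicate 1 (adjusted p = 0.278), dilated replicate 2 (0.0916) or untreated replicate 1 (0.0680). The Pappa call against sphincter 1 was lost without dilated replicate 1 (0.0719) or 2 (0.0664), and the one against dilator muscle without dilated replicate 2 (0.187) or untreated replicate 2 (0.164). Without untreated replicate 3 the Ptprz1 difference against dilator muscle was called (-1.30, edgeR adjusted p = 0.00135).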

How the results depend on the processing

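No called result turned direction in the alternatives. The member calls counted here include Pcsk5 in sphincter 2 and its interaction against sphincter 1, and nothing is read from its part. Apart from sphincter 2, the altered counts are given without the share of all genes, so they say nothing particular to the members or lists. The 6 member calls with dilation became 11 with the series of library numbers as a term and 3 to 6 when 1 library was left out. The 0 member calls with constriction outside sphincter 2 became 2 with DESeq2, 3 without the filter on low counts, 2 with the series term, 1 without the nuclei of shared barcodes (an alternative chosen after seeing the data) and 0 to 2 with 1 library left out. The 24 listed genes called with dilation became 38 without the filter, 49 with the series term and 9 to 27 with 1 library left out. The 0 listed genes with constriction became 1 with DESeq2, 6 without the filter, 1 in a fit of only the 2 groups compared, 1 with the series term, 1 without the nuclei of shared barcodes and 0 to 1 with 1 library left out. In sphincter 2 the 192 genes called with dilation became 99 with DESeq2, 350 with the series term and 48 (without dilated replicate 2) to 235 with 1 library left out, and the 6 called with constriction became 2 with DESeq2, 24 without the filter, 11 with only the 2 groups compared, 11 with the series term and 0 (without untreated replicate 2 or 3) to 16 with 1 library left out. The 3 member calls of the interaction against sphincter 1 ranged from 0 to 3 and the 1 against dilator muscle from 0 to 2 with 1 library left out. The cause of these shifts was not tested.

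Deviations of same-numbered libraries correlated at -0.03 to 0.18 in sphincter 2 and -0.03 to 0.43 in dilator muscle. Only the pairs with constricted replicate 2 shared a number but not a series. They were at -0.03 and 0.01 in sphincter 2 and at -0.03 and -0.02 in dilator muscle. In all other same-numbered pairs number and series cannot be told apart. Libraries of the same series of consecutive numbers did deviate together, at 0.02 to 0.20 in sphincter 2 and 0.18 to 0.43 in dilator muscle, against -0.20 to 0.03 and -0.43 to 0.09 between series. Deviations were taken from the mean of each group, which by construction sets its libraries against each other. The 2 dilated libraries thus mirror each other. The labels do not say what a series shares. With the replicate number as a block, 7 member calls were made with dilation and 1 with constriction outside sphincter 2, 35 and 1 listed genes were called, and sphincter 2 had 232 genes called with dilation and 25 with constriction. Pappa in sphincter 1 lost its call under the block (1.14, edgeR adjusted p = 0.0851).

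Counted as combinations of a member log2 fold change and an alternative fit, 23 lost and 26 gained a call. The same fold change can enter these counts several times. Members with few UMIs in sphincter 2 (Pappa2 with 0 to 7 and Pcsk6 with 1 to 6 per library) were not tested there, and the 26 and 28 nuclei of untreated replicate 1 and constricted replicate 2 limit the precision of their values.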
